A study of Mus musculus with 12 samples.

Results

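Periocular skin of filaggrin-deficient mice was examined for 10 genes that mark stem and progenitor cells of the hair follicle bulge and isthmus. The genes were *Lgr5*, *Lgr6*, *Lrig1*, *Lhx2*, *Sox9*, *Cd34*, *Nfatc1*, *Krt15*, *Tbx1* and *Gata6*, each taken by its symbol from a count table of 21247 genes. All 10 were present and all 10 were among the 20454 genes tested. The question was how these genes stood in the 4 libraries labelled ft/ftMyD88-/- against the 4 labelled ft/ft. Both groups were 6 weeks old, on a BALB/c background, labelled female, and carried the spontaneous loss-of-function point mutation of filaggrin (ft/ft), with the *ma* mutation of *Tmem79* removed according to the methods. The ft/ftMyD88-/- mice came, per the labels, from an in-house cross with MyD88-deficient (MyD88-/-) mice, a genotype not limited to keratinocytes. Each library was made from a whole biopsy, in which fewer cells of a type and less RNA per cell cannot be told apart. The 4 WT samples were not analysed here.

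The hair follicle is renewed from several pools of epithelial stem cells. The bulge, at the base of the permanent follicle, holds quiescent cells marked by CD34, keratin 15, LHX2, SOX9, NFATc1 and TBX1, while LGR5 marks the lower bulge and hair germ that start each new growth phase (anagen). Above the bulge, the isthmus and junctional zone hold cells marked by LGR6 and LRIG1, which feed the upper follicle and the sebaceous gland, and GATA6 marks the sebaceous duct. In whole skin most of these genes have other sources as well, such as vessels and dermal fibroblasts for CD34 and the basal epidermis for keratin 15.

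The 4 ft/ft libraries held between 18941705 and 29255129 counts, and the 4 others between 15802957 and 27037997. Levels are given as CPM, the count relative to library size, which was scaled by edgeR's TMM factors. *Myd88* itself was higher, not lower, with the label ft/ftMyD88-/- (41.2 ± 7.29 against 30.7 ± 4.74 CPM, SD, n = 4 each, adjusted p = 0.0484 by edgeR), and a gene count does not show which exons were read, so each direction below rests on the labels. *Xist* averaged 49.4 CPM in ft/ftMyD88-/- and had 1 count over all ft/ft libraries, while the Y-linked *Ddx3y* averaged 0.147 CPM in ft/ftMyD88-/- and 65.0 in ft/ft. These transcripts go against the label of female mice for ft/ft, and sex and genotype cannot be told apart in any comparison that follows. Among the cell types a biopsy can hold, summed markers lay below every ft/ft library in every ft/ftMyD88-/- library for sebocytes, skeletal muscle, dermal fibroblasts, endothelium and Schwann cells, and above for T cells and proliferating cells. The smooth muscle sum was lower too, but its genes split, with *Des*, which skeletal muscle also expresses, lower (571 to 314 CPM) and *Acta2* higher (119 to 171 CPM), and a median log2 fold change of 0.52. Dermal fibroblast markers split as well. *Col1a1*, *Col1a2* and *Col3a1* passed as lower. *Dpt*, *Pdgfra* and *Lum* had positive log2 fold changes and *Dcn* a negative one, without passing. The endothelial sums lay close, at up to 290.7 CPM in ft/ftMyD88-/- and from 294.9 CPM in ft/ft.

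Of the 10 genes, 3 were lower and 2 higher in the libraries labelled ft/ftMyD88-/- at a Benjamini-Hochberg adjusted p under 0.05 (edgeR quasi-likelihood test), and 5 did not pass. *Krt15*, *Lgr6* and *Nfatc1* fell, and *Tbx1* and *Lhx2* rose. Over all genes tested, 23.3% passed, with 10.9% higher and 12.3% lower. The median log2 fold change of the 10 was -0.09 against 0.01 over all genes tested, and the median of its absolute size was 0.36 against 0.31. The genes did not move in 1 direction. The 4 libraries of one group did not overlap the other 4 in 4 of the genes, where 26.7% of all genes tested showed no overlap. Only *Krt15* passed with a change of at least 2-fold, as did 6.22% of all genes tested.

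**Figure D1:**
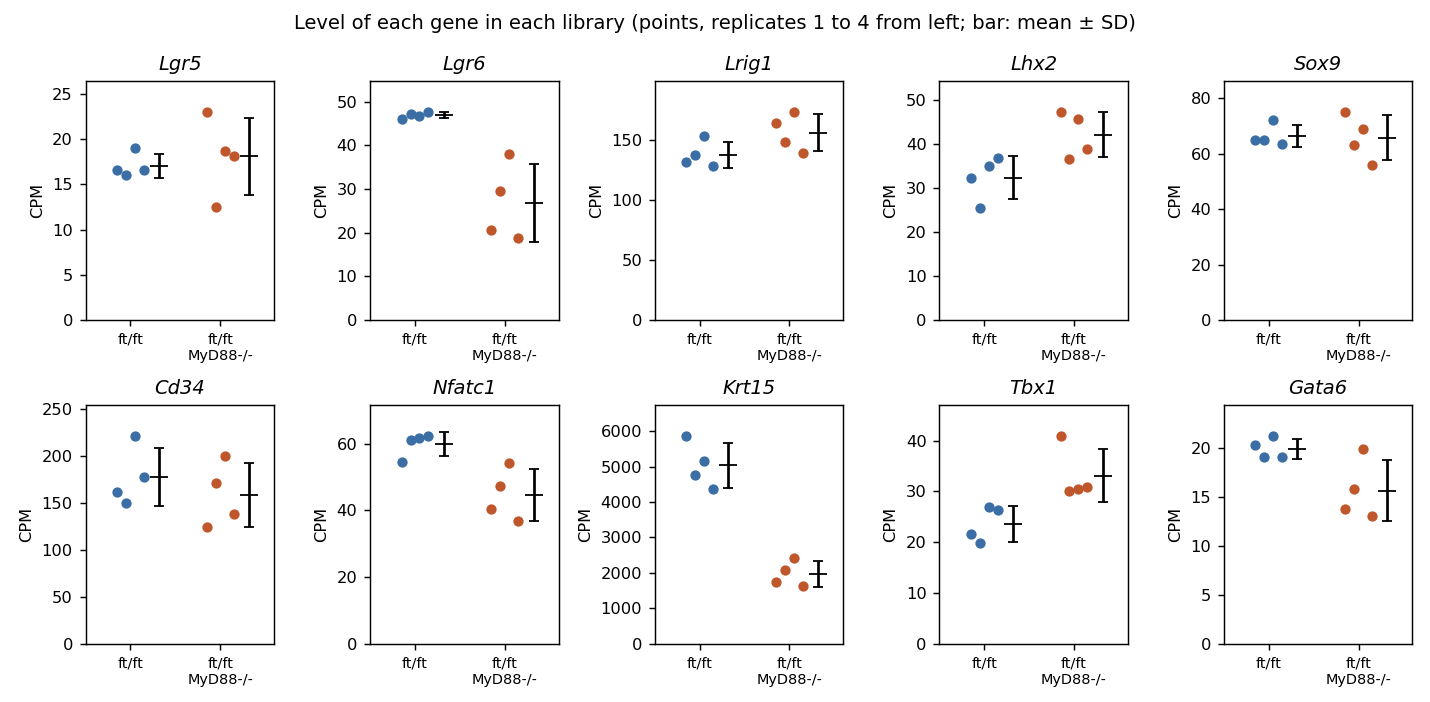
Level in CPM (linear axes from 0) of the 10 genes in 4 libraries labelled ft/ft (blue) and 4 labelled ft/ftMyD88-/- (orange), with the mean and SD beside the points. *Krt15*, *Lgr6*, *Nfatc1* and *Tbx1* have groups that do not overlap, and the *Lgr6* points are tight in ft/ft, from 46.1 to 47.6 CPM, and spread in ft/ftMyD88-/-, from 18.8 to 38.0.

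**Figure D2:**
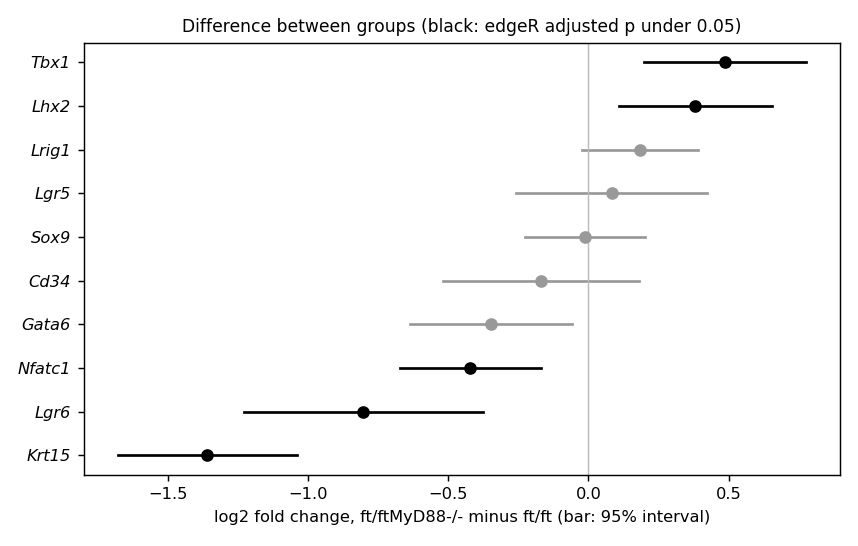
Log2 fold change of each gene, ft/ftMyD88-/- minus ft/ft, with its 95% interval from the edgeR fit (n = 4 each). Black marks the 5 genes with an adjusted p under 0.05, which run from -1.36 for *Krt15* to 0.49 for *Tbx1*.

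Keratin 15 is a type I keratin of basal keratinocytes and of bulge cells. *Krt15* (GRCm38.p6 chromosome 11, 100131759 to 100135949, coordinates of RefSeq genes here and below) was the most abundant of the 10 per kilobase of exon. Its libraries stood at 5866, 4773, 5156 and 4354 CPM in ft/ft replicates 1 to 4 and at 1740, 2092, 2409 and 1616 in ft/ftMyD88-/-. Every library labelled ft/ftMyD88-/- was below every library labelled ft/ft. The level was 2.56-fold lower (log2 fold change -1.36 ± 0.147, SE, with an adjusted p of 1.30e-04 in edgeR), a decrease that passed in each of the 8 fits that left out 1 library. *Krt14* and *Krt5*, which encode the keratin pair of basal cells, were set beside it after values were seen. *Krt14* averaged 4718 ± 634 CPM against 4881 ± 847 in ft/ftMyD88-/- (SD, n = 4 each; log2 fold change 0.05, edgeR adjusted p = 0.839). The count ratio of *Krt15* to *Krt14* within a library, which does not depend on scaling, was 0.867 to 1.27 in ft/ft and 0.287 to 0.578 in ft/ftMyD88-/-, a mean log2 difference of -1.41. *Krt5* averaged 4994 ± 495 CPM against 3131 ± 189 in ft/ftMyD88-/- (log2 fold change -0.67, edgeR adjusted p = 0.0014), so the ratio of *Krt15* to *Krt5* moved less, from 0.897 to 1.20 in ft/ft to 0.507 to 0.818, a mean log2 difference of -0.70. These ratios are a description of pairs picked for their levels, so no p-value is given for them. *Krt15* and *Krt14* lie on chromosome 11 and are similar in sequence, so reads of 1 could have been counted for the other. Beside this, 6 of 8 basal keratinocyte markers were lower and none higher, among them *Lamb3*, a laminin chain of the basement membrane (146.9 against 73.5 CPM, edgeR adjusted p = 1.41e-04), and *Col17a1*, a hemidesmosomal collagen (log2 fold change -0.80, edgeR adjusted p = 0.00104). Their summed level overlapped between the groups, 10320 to 13140 CPM against 8447 to 10340.

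LGR5 and LGR6 are receptors for R-spondins, secreted proteins that raise the response of a cell to Wnt. *Lgr6* (chromosome 1, 134983300 to 135105374) stood at 46.1, 47.2, 46.6 and 47.6 CPM in ft/ft replicates 1 to 4 and at 20.7, 29.7, 38.0 and 18.8 in ft/ftMyD88-/-. The groups did not overlap, and the libraries labelled ft/ftMyD88-/- were more spread, with a coefficient of variation of 33.0% against 1.37% in ft/ft (a difference in spread that was not tested). The ft/ft value is smaller than counting noise alone would give for its counts of 836 to 1298. It therefore does not measure the spread between mice. The level was 1.74-fold lower in ft/ftMyD88-/- (log2 fold change -0.80 ± 0.191, SE, with an adjusted p of 0.0136 in edgeR). The call held without any 1 library, where the highest adjusted p was 0.0351, and was lost when the libraries were scaled to basal keratinocyte genes (log2 fold change -0.30, adjusted p = 0.124).

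*Lgr5* (chromosome 10, 115450314 to 115587780) was at 16.6, 16.04, 19.0 and 16.6 CPM in ft/ft and at 23.0, 12.5, 18.7 and 18.2 in ft/ftMyD88-/-. The highest and the lowest library were both labelled ft/ftMyD88-/-. No difference was detected (log2 fold change 0.08, 95% interval -0.26 to 0.42, edgeR adjusted p = 0.741), and the sign turned without ft/ftMyD88-/- replicate 1 (-0.05). *Lgr6* was set against *Lgr5* within each library, a comparison chosen after the values were seen. The ratio of *Lgr6* to *Lgr5* counts was 2.45 to 2.94 in ft/ft and 0.903 to 2.37 in ft/ftMyD88-/-. This is again a description without a p-value, since the pair was picked for its levels. For *Lgr5* to *Lgr4*, the third receptor of the family, the ratio was 0.195 to 0.256 against 0.182 to 0.269.

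**Figure D3:**
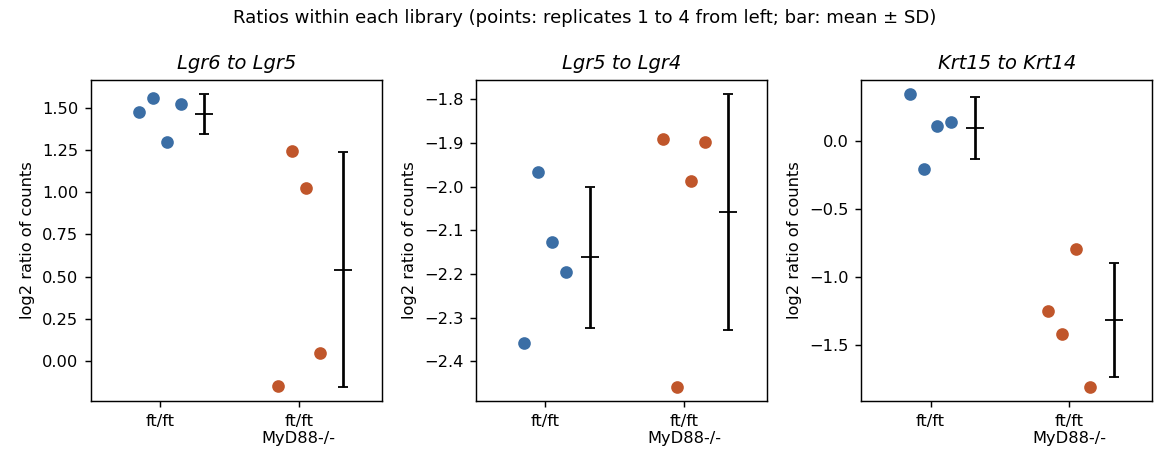
Log2 ratio of the counts of 2 genes within each library, by group, with the mean and SD beside the points. The *Lgr6* to *Lgr5* ratio fell from a mean of 1.46 to 0.54 and the *Krt15* to *Krt14* ratio from 0.10 to -1.31, without overlap, while the *Lgr5* to *Lgr4* ratio overlapped.

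NFATc1 is a transcription factor that is brought into the nucleus by the phosphatase calcineurin and holds bulge cells quiescent. *Nfatc1* (chromosome 18) was at 54.5, 61.0, 61.6 and 62.3 CPM in ft/ft and at 40.3, 47.4, 54.2 and 36.7 in ft/ftMyD88-/-. The highest library labelled ft/ftMyD88-/-, replicate 3, came just under the lowest library labelled ft/ft, replicate 1. The level was 1.34-fold lower (log2 fold change -0.42 ± 0.116, SE, with an adjusted p of 0.0211 in edgeR). The call was lost in 4 of the 8 fits without 1 library, those without ft/ft replicate 3 or 4 or ft/ftMyD88-/- replicate 1 or 4, where the adjusted p ran up to 0.0613. It was also lost with scaling by library size alone (-0.24, adjusted p = 0.171), and the sign turned with scaling to basal keratinocyte genes (0.10, adjusted p = 0.528).

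The 2 genes that rose encode transcription factors of quiescent bulge cells. TBX1 is a T-box factor and LHX2 a LIM-homeodomain factor. *Tbx1* (chromosome 16, 18580979 to 18590671) was at 21.5, 19.8, 26.9 and 26.4 CPM in ft/ft and at 40.9, 30.1, 30.6 and 30.9 in ft/ftMyD88-/-. All 4 libraries labelled ft/ftMyD88-/- were above all 4 labelled ft/ft, and replicate 1 stood well above the other 3. The level was 1.40-fold higher (log2 fold change 0.49 ± 0.133, SE, with an adjusted p of 0.0207 in edgeR). The call was lost without ft/ft replicate 1 or 2 (adjusted p = 0.0549 and 0.0523).

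*Lhx2* (chromosome 2, 38339271 to 38369737) was at 32.2, 25.5, 34.9 and 36.8 CPM in ft/ft and at 47.2, 36.6, 45.7 and 38.9 in ft/ftMyD88-/-. The groups touched, since ft/ftMyD88-/- replicate 2 was just under ft/ft replicate 4. The level was 1.30-fold higher (log2 fold change 0.38 ± 0.125, SE, with an adjusted p of 0.0449 in edgeR). This call was the weakest of the 5. It was kept in only 2 of the 8 fits without 1 library, those without ft/ft replicate 4 or ft/ftMyD88-/- replicate 2, and was lost in the other 6 with an adjusted p of up to 0.0997. It was also lost with limma voom (adjusted p = 0.0521). The annotation places other transcripts over *Lhx2*, and the library kit of the methods does not mark strand, so their reads could be part of its count. Overlapping genes are also annotated at *Lgr5*, *Lrig1*, *Cd34*, *Nfatc1* and *Gata6*.

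RefSeq promoters of GRCm38.p6, from 250 bases before to 50 bases after a start site, were listed for 5 of the 10 genes, *Lgr6*, *Lrig1*, *Lhx2*, *Cd34* and *Tbx1*. Those of *Lgr6*, which fell, and of *Lhx2* and *Tbx1*, which rose, at the most upstream start listed for each gene, are shown to set a gene that fell beside the 2 that rose. They are written 5′ to 3′ on the strand of the gene, with CpG dinucleotides in capitals.
*Lgr6*, chr1:135105227-135105526, minus strand: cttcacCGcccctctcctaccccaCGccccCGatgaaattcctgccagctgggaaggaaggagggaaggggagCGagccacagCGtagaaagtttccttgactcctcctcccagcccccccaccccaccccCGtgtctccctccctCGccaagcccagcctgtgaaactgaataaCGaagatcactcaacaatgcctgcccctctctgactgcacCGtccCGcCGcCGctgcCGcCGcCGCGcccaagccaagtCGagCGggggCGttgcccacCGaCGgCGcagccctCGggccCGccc
*Lhx2*, chr2:38339031-38339330, plus strand: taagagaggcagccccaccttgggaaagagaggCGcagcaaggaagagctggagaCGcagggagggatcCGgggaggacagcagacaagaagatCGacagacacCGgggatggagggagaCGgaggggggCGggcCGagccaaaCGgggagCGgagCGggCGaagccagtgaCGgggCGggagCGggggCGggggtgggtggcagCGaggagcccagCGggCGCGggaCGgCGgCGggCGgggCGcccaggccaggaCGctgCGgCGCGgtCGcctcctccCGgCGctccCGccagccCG
*Tbx1*, chr16:18590622-18590921, minus strand: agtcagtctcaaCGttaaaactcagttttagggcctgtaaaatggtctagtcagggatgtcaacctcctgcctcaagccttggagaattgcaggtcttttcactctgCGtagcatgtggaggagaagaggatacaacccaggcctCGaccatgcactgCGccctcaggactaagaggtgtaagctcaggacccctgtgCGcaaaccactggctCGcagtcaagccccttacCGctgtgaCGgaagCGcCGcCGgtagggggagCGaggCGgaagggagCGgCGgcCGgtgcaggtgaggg
These windows held 24 CpG in *Lgr6*, 34 in *Lhx2* and 16 in *Tbx1*, against a median of 7 over the 32851 promoters of the table. At least 16 CpG were held by 33.0% of all promoters, at least 24 by 20.0% and at least 34 by 7.73%. All 3 held more CpG than the median promoter. A further start was listed for *Lhx2*, with 29 CpG, and for *Tbx1*, with 26, so the order of the 3 genes by CpG depends on the start chosen. The last bases of both *Tbx1* windows were not found in an annotated transcript of the gene, while those of the other windows were. The RefSeq gene of *Lgr6* runs to 135105374, upstream of the start from which its window was drawn. Motifs were searched as exact letters on both strands in the 7 promoters listed for the 5 genes. The SOX core ACAATG had 1 match, in *Lgr6*, and is held by 12.6% of all promoters. The TATA box TATAAA had no match and is held by 13.6%. The TCF/LEF core CTTTGA, held by 16% of all promoters, had none either. The GATA core AGATAA had none and is held by 11.2%. The GLI core GGGTGGTC had none and is held by 0.807%.

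The 5 genes that did not pass were *Sox9*, *Lrig1*, *Lgr5*, *Cd34* and *Gata6*. *Sox9* (chromosome 11, 112782210 to 112787757), an HMG-box factor of the outer root sheath and bulge, was at 65.1, 64.9, 72.2 and 63.4 CPM in ft/ft and at 75.0, 63.2, 69.0 and 56.0 in ft/ftMyD88-/-. Its log2 fold change of -0.01 (95% interval -0.22 to 0.20, edgeR adjusted p = 0.944) was the smallest of the 10. *Lrig1* (chromosome 6, 94604529 to 94700298), a transmembrane protein that restrains epidermal growth factor receptors, was at 132, 137, 153 and 128 CPM in ft/ft and at 164, 149, 173 and 139 in ft/ftMyD88-/-. The groups overlapped, since ft/ft replicate 3 was above ft/ftMyD88-/- replicates 2 and 4 (log2 fold change 0.18, 95% interval -0.02 to 0.39, edgeR adjusted p = 0.184).

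CD34 is a surface sialomucin of bulge cells, and in dermis also of vessels and fibroblasts. *Cd34* (chromosome 1, 194938821 to 194961292) was at 162, 150, 221 and 178 CPM in ft/ft and at 124, 171, 200 and 138 in ft/ftMyD88-/-, with wide overlap (log2 fold change -0.17, 95% interval -0.52 to 0.18, edgeR adjusted p = 0.487). The highest library, ft/ft replicate 3, also held the highest sum of dermal fibroblast markers, at 29400 CPM against 14300 to 19900 in the other ft/ft libraries. Of 7 fibroblast markers, 3 were lower, all of them collagen genes, and *Dpt*, *Pdgfra*, *Lum* and *Dcn* stood at log2 fold changes of 0.39, 0.31, 0.09 and -0.40 without passing. Of 9 endothelial markers, 3 were lower and 1, *Egfl7*, was higher (log2 fold change 0.49, edgeR adjusted p = 0.0493), but none was higher in 6 of the 8 fits without 1 library (all but those without replicate 1 of either group) or with the replicate block. *Col1a1* had a log2 fold change of -1.60 (edgeR adjusted p = 9.07e-04) and the endothelial receptor gene *Kdr* one of -0.55 (edgeR adjusted p = 0.00674). The endothelial count of 3 became 0 with library size alone and with scaling to basal keratinocyte genes, and with the latter 3 fibroblast markers were higher and 3 lower. The part of these cells in the *Cd34* level was not tested. GATA6 is a zinc finger factor of the sebaceous duct. *Gata6* (chromosome 18) was at 20.2, 19.0, 21.2 and 19.1 CPM in ft/ft and at 13.7, 15.8, 19.9 and 13.0 in ft/ftMyD88-/-. Replicates 1, 2 and 4 of ft/ftMyD88-/- were below every ft/ft library, and replicate 3 was within them. The log2 fold change was -0.35 (95% interval -0.64 to -0.06, unadjusted), and the edgeR adjusted p was 0.0786. Without replicate 3 of ft/ftMyD88-/- it was -0.47 (adjusted p = 0.0126), the only 1 of the 8 fits without a library that passed, and the other 7 had an adjusted p of 0.101 to 0.192. Beside it, 9 of 12 sebocyte markers were lower (6 with library size alone and 2 with scaling to basal keratinocyte genes), and their sum was 23330 to 26120 CPM in ft/ft and 12750 to 19260 in ft/ftMyD88-/-. The part of sebocyte RNA in the *Gata6* level was not tested.

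Per kilobase of annotated exon, the order of levels in ft/ft began with *Krt15* at 2851 CPM per kilobase. *Lrig1* (24.6 ± 1.98, SD, n = 4) and *Cd34* (24.4 ± 4.28) followed and did not differ beyond their spread, then *Sox9* (16.1 ± 0.95). *Nfatc1* (8.01 ± 0.485), *Lhx2* (7.36 ± 1.13), *Lgr6* (6.84 ± 0.0937) and *Tbx1* (6.73 ± 1.01) were close neighbours, of which each differed from the next by less than the larger of their SDs. *Gata6* (3.06 ± 0.159) and *Lgr5* (1.66 ± 0.13) were lowest. In ft/ftMyD88-/- the same group of 4 had drawn apart, with *Lhx2* at 9.58 ± 1.17 and *Tbx1* at 9.42 ± 1.48 above *Nfatc1* at 5.98 ± 1.04 and *Lgr6* at 3.91 ± 1.29. The position of *Krt15* first and *Lgr5* last was the same in both groups. Division by exon length assumes reads from along the whole transcript, as in the methods, and would not apply to the probe-based fixed-tissue protocol that the labels name.

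The libraries labelled ft/ftMyD88-/- ordered the genes in more than 1 way. *Krt15*, *Lgr6*, *Nfatc1* and *Gata6* were highest in replicate 3, then 2, 1 and 4. Total counts ranked in the same order, as did 6.12% of all genes tested, and the part of depth in these levels was not tested. *Lgr5*, *Lhx2*, *Sox9* and *Tbx1* were instead highest in replicate 1. Markers listed for the hair matrix and shaft, the products of growing hair, summed to 17000, 2460, 3740 and 8970 CPM in replicates 1 to 4. In ft/ft they summed to 1980 to 2790. The list also holds keratin genes of the inner root sheath, such as *Krt71* (mean 2473 CPM in ft/ftMyD88-/-), so the sum is not of shaft RNA alone. Replicate 1 had the highest sum. The order of these sums, replicates 1, 4, 3 and 2, was that of *Tbx1* but not of the other 3 genes. For *Tbx1* it rests on replicate 1, since replicates 2 to 4 were close, at 30.1 to 30.9 CPM. The share of all genes with this order is not given here. The part of hair growth in the levels of *Lgr5*, *Lhx2*, *Sox9* and *Tbx1* was not tested. Of 14 such markers, 3 passed as higher and 11 did not pass. That count ran from 1 to 11 when 1 library was left out, with 11 without ft/ftMyD88-/- replicate 2, and reached 13 with DESeq2 and 14 with scaling to basal keratinocyte genes. *Msx2*, a homeobox gene of the matrix, was at 41.5 ± 28.4 against 11.4 ± 2.16 CPM (log2 fold change 1.85, edgeR adjusted p = 0.0494).

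Partner genes of the same pathways were counted in 6 lists, with percentages over all genes tested as above. Other bulge and hair germ genes split, with 4 of 18 higher, 3 lower and 11 not passing. *Runx1*, a factor that promotes follicle stem cell activation, rose (log2 fold change 0.75, edgeR adjusted p = 0.00176), as did *Postn*, a matricellular protein (0.58, 0.00246). *Fgf18*, a growth factor of the resting bulge, fell by 1.07 on the log2 scale (edgeR adjusted p = 0.00802), from 18.5 ± 1.59 to 8.76 ± 3.33 CPM (SD, n = 4 each). *Col17a1* fell as above. *Tcf7l1* and *Sfrp1*, a repressor of Wnt targets and a Wnt inhibitor of the bulge, stood at log2 fold changes of 0.07 and -0.05.

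Of the 9 hedgehog genes, 5 passed as higher and none as lower. Hedgehog is a secreted signal of the growing follicle that acts through GLI factors. *Hhip*, which binds hedgehog and is itself a target of the pathway, was at 4.22 to 6.09 against 7.46 to 10.1 CPM (log2 fold change 0.73, edgeR adjusted p = 0.0081). *Gli2*, *Gli3* and *Gli1* rose as well, with log2 fold changes of 0.58, 0.68 and 0.51 (edgeR adjusted p = 0.00812, 0.0259 and 0.0262). The ligand gene *Shh* was at 1.73 ± 0.917 against 2.74 ± 0.426 CPM and did not pass (edgeR adjusted p = 0.166). *Smo* went the other way without passing, at 122.8 to 134.4 CPM in ft/ft and 105.9 to 119.4 in ft/ftMyD88-/- (edgeR adjusted p = 0.0656). The summed level of the list overlapped, at 231.6 to 252.5 CPM in ft/ft and 244 to 280.1 in ft/ftMyD88-/-. The number of hedgehog genes that rose was 4 to 6 without any 1 library, and DESeq2 called 1 hedgehog gene lower.

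Among 15 R-spondin, LGR and Wnt genes, *Lef1* alone passed, and it rose. It encodes a partner of beta-catenin that is high in the hair matrix, and its libraries stood at 2.23 to 2.84 CPM in ft/ft and at 17.9, 4.23, 7.08 and 10.9 in ft/ftMyD88-/- (log2 fold change 1.96 ± 0.403, SE, with an adjusted p of 0.00884 in edgeR). The 4 R-spondin genes and *Lgr4* did not pass, nor did *Axin2*, a common Wnt target (log2 fold change -0.27, edgeR adjusted p = 0.111). In this list, 2 genes were higher without ft/ftMyD88-/- replicate 2 or with DESeq2. Without ft/ft replicate 1 or ft/ftMyD88-/- replicate 3, 1 gene was lower. Among 15 BMP and calcineurin genes, 2 rose, *Cdk4* (0.41, edgeR adjusted p = 0.00649), a cell cycle kinase that NFATc1 represses in bulge cells, and *Smad1* (0.34, 0.00988), which carries the BMP signal. *Ppp3ca*, a catalytic subunit of calcineurin, fell by 0.44 on the log2 scale (edgeR adjusted p = 0.00569), and 12 did not pass. The lower count of this list was 3 without ft/ftMyD88-/- replicate 1 or with DESeq2. It was 2 without ft/ft replicate 2 or with the replicate block. Of 7 genes of the upper follicle and sebaceous duct, *Klk10*, a kallikrein protease, fell by 0.72 (edgeR adjusted p = 5.72e-04) and 6 did not pass, *Krt79* standing at -0.01. Of 17 paralogues, 14 were tested, and 2 fell. The count was 1 without ft/ft replicate 1, 3 or 4 or ft/ftMyD88-/- replicate 4, with limma voom and with library size alone, and 3 without ft/ftMyD88-/- replicate 3. The 2 were *Podxl2*, of the CD34 family (log2 fold change -0.66, edgeR adjusted p = 0.00258), and *Sox8* (-0.89, 0.0443). Markers of proliferation were higher in 7 of 8, with the spindle checkpoint kinase gene *Bub1* at a log2 fold change of 1.01 (edgeR adjusted p = 5.25e-04), and their sum did not overlap, at 163 to 250 CPM against 291 to 373.

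These counts depended on the scaling. With scaling to basal keratinocyte genes, 10 R-spondin, LGR and Wnt genes were higher, as were 9 BMP and calcineurin genes, 9 hedgehog genes, 7 paralogues, 5 genes of the upper follicle and 12 other bulge and hair germ genes. With library size alone, these counts were 3, 3, 7, 0, 2 and 6. Over all 20454 genes tested, 10437 were higher and 480 lower with keratinocyte scaling, and 4638 higher and 1326 lower with library size alone. Of the lower calls, keratinocyte scaling left 1 among the other bulge and hair germ genes. It left 0 in the BMP and calcineurin, upper follicle and paralogue lists, so that *Ppp3ca*, *Klk10*, *Podxl2* and *Sox8* no longer passed as lower. Library size alone left 2 lower calls among the other bulge and hair germ genes and 1 each in the upper follicle and paralogue lists. It left 0 in the BMP and calcineurin list, so the *Ppp3ca* call was lost there too.

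**Figure D4:**
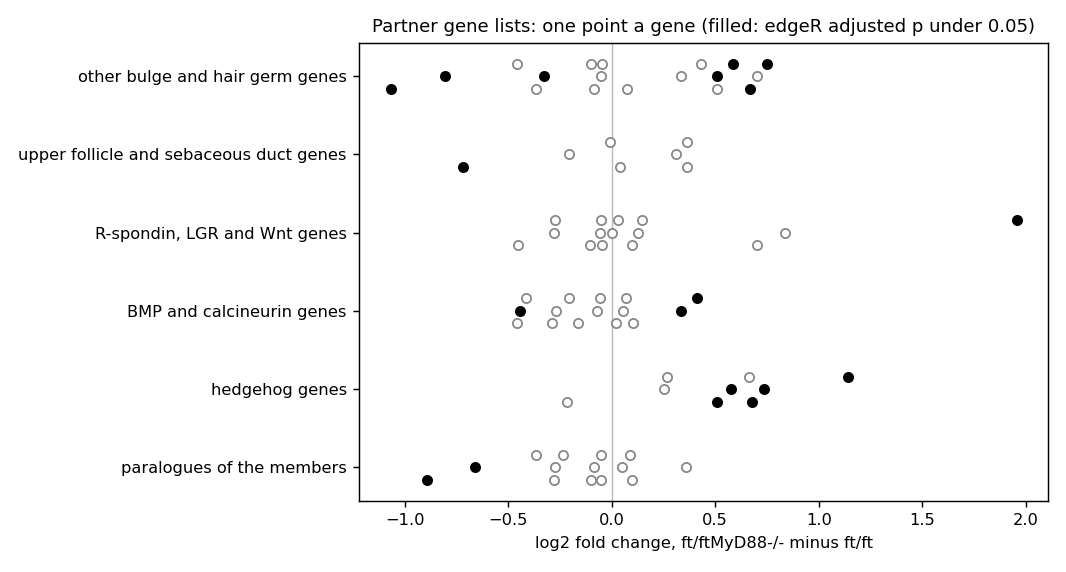
Log2 fold change, ft/ftMyD88-/- minus ft/ft, of each tested gene of 6 partner lists (1 point a gene, spread vertically for legibility). Filled points have an edgeR adjusted p under 0.05. The hedgehog list holds 5 filled points, all to the right of 0, and the Wnt list only 1, *Lef1* at 1.96.

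The direction of several genes depended on the scaling. The median log2 fold change of all genes was 0.01 with TMM, 0.19 with library size alone and 0.54 with scaling to the 8 basal keratinocyte genes, 6 of which were themselves lower. *Krt15* was lower under each of the 4 scalings tried, and *Tbx1* and *Lhx2* were higher under each. *Lgr6* stayed lower under each but passed in 3 of them. The log2 fold change of *Krt15* with keratinocyte scaling was -0.84 (edgeR adjusted p = 4.37e-04). *Sox9* turned to 0.52 with keratinocyte scaling and passed as higher (edgeR adjusted p = 0.00274). *Cd34*, *Gata6* and *Nfatc1* turned from lower to higher with it and did not pass, and *Lgr5* and *Lrig1* passed as higher. *Sox9* and *Cd34* also turned with library size alone, and *Sox9* with RLE.

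**Figure D5:**
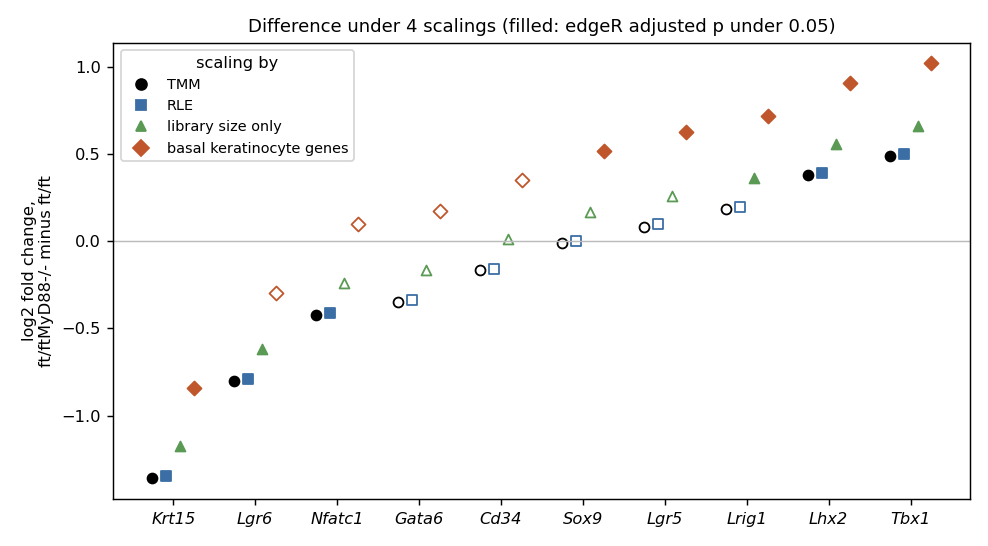
Log2 fold change, ft/ftMyD88-/- minus ft/ft, of the 10 genes with libraries scaled by TMM, RLE, library size alone or basal keratinocyte genes. Filled symbols have an edgeR adjusted p under 0.05. The order of the genes is kept while all values shift upward with the last 2 scalings, and *Krt15* stays lowest, from -1.36 to -0.84.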

How the data were processed

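RNA-seq was made from periocular skin biopsies of 4 ft/ft and 4 ft/ftMyD88-/- mice, with groups and libraries taken from the sample labels. The authors sequenced polyA-selected libraries (single end, 50 cycles), aligned the reads to GRCm38.p6 using HISAT and TopHat2, and deposited whole-number counts per gene, not normalized. They name HTSeq at default settings. The submitters' processing notes also name Cell Ranger, and the labels a fixed-tissue protocol. Tool versions and the annotation are not given in the sources used here. The 4 WT samples were not analysed here.

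Genes with at least 10 counts in all entered a fit by edgeR 4.0.16 under R 4.3.3 (TMM, glmQLFit with robust = TRUE, glmQLFTest, two-sided, no covariate) and Benjamini-Hochberg adjustment at 0.05 over all 20454. Standard errors come from the fold change and F. Exon lengths are unions of GENCODE M21 exons. Alternatives were RLE, library size alone, scaling to basal keratinocyte genes, DESeq2 1.42.0, limma 3.58.1 voom, no filter, filterByExpr, a replicate block, leaving out 1 library at a time and an adjusted p under 0.01. Members and lists were chosen with earlier results of these data known. Named genes were the 10 members, checks of the labels and, per list, up to 2 genes per direction with the smallest adjusted p. *Krt14*, *Krt5*, *Lgr4*, *Gli1*, *Gli2*, *Gli3* and the other list genes that did not pass were named after values were seen, and so were the within-library ratios and the order of libraries. The values of 1 listed gene are not reported here. In a simulation of this comparison over 20177 genes, the fit found 20 of 64 genes changed 1.5-fold, 64 of 70 changed 2-fold and 66 of 66 changed 4-fold, with 6 false calls. The simulation changed far fewer genes than the 4764 that passed here, and drew each gene at the trended dispersion. The shares found there thus need not hold for the data. Replicates differed by more than counting noise (chi-square per degree of freedom at least 12.8).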

Additional observations from a re-analysis of the deposited data

Results flagged for a closer look

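In the libraries labelled ft/ftMyD88-/-, *Tbx1* in replicate 1 was at 40.9 CPM and stood far from the other 3, which were at 30.1 to 30.9. Its gap to the nearest library was 0.924 of the range of the group, above the 95% critical value of the Dixon test for 4 samples. Chance passes this limit in about 1 of 20 groups, and 20 groups were examined. The difference of *Tbx1* between the groups passed without this library as well, as given by the fits without 1 library, in which only those without ft/ft replicate 1 or 2 lost the call.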

How the results depend on the processing

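Of the 170 values of single members under alternatives, 135 kept their direction and their side of the threshold, and *Krt15* kept both in all 17 of its own. Scaling to basal keratinocyte genes moved most, with log2 fold changes of 0.35 for *Cd34*, 0.17 for *Gata6* and 0.10 for *Nfatc1*, turned to higher without passing, 0.52 for *Sox9*, turned and then passed as higher, 0.63 for *Lgr5* and 0.72 for *Lrig1*, which also passed, and -0.30 for *Lgr6*, which no longer passed. It gave 10437 genes higher and 480 lower over all genes tested, and 5 members higher and 1 lower. Library size alone gave 4638 higher and 1326 lower, 0.012 for *Cd34* and 0.17 for *Sox9*, both turned, 0.36 for *Lrig1*, which passed, and -0.24 for *Nfatc1*, which did not. *Sox9* also turned with RLE (0.0013) and DESeq2 (0.0021). With limma voom *Lhx2* was at 0.39 and no longer passed, which left 1 member higher. At an adjusted p under 0.01, *Lgr6* (-0.80), *Lhx2* (0.38), *Nfatc1* (-0.42) and *Tbx1* (0.49) no longer passed.

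Without 1 library in turn, log2 fold changes ranged from -0.050 to 0.23 for *Lgr5*, -1.004 to -0.66 for *Lgr6*, 0.14 to 0.24 for *Lrig1*, 0.28 to 0.45 for *Lhx2*, -0.076 to 0.066 for *Sox9*, -0.28 to -0.04 for *Cd34*, -0.51 to -0.33 for *Nfatc1*, -1.46 to -1.27 for *Krt15*, 0.37 to 0.55 for *Tbx1* and -0.47 to -0.26 for *Gata6*. *Lgr5* turned without ft/ftMyD88-/- replicate 1 (-0.050), and *Sox9* without ft/ft replicate 3 (0.031) or ft/ftMyD88-/- replicate 2 (0.011) or 4 (0.066). Members higher ranged from 0 to 2, with 0 without ft/ft replicate 1 or 2 (edgeR, both *Lhx2* and *Tbx1* then at adjusted p from 0.0523 to 0.0957), and members lower from 2 to 4. Genes higher ranged from 1464, without ft/ft replicate 4, to 2260, and genes lower from 1851 to 2408. The cause of these moves was not tested.

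The shared replicate numbers did not pair the samples, with correlations of deviations from -0.146 to 0.0251 for the same number, and with the replicate block 1895 genes were higher and 2144 lower, against 2239 and 2525 without it. The block changed no call of a member. With 4 libraries a group, the intervals of the 5 members that did not pass still allow differences of the size seen in *Lhx2* for *Cd34*, *Lgr5*, *Lrig1* and *Gata6*.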
